A study of Homo sapiens with 4 samples.

Results

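The SERPINB genes encode the clade B serpins, a branch of the serine protease inhibitor superfamily whose members act mostly inside the cell. Counts of 10 of them, SERPINB1, SERPINB2, SERPINB3, SERPINB4, SERPINB5, SERPINB6, SERPINB7, SERPINB8, SERPINB9 and SERPINB13, were read from poly(A) RNA sequencing of the established cell line NCI-H1048, a human small cell lung carcinoma. The members were taken by gene symbol, 10 of 35979 symbols in the tables, and the family was chosen by the size of the increases of SERPINB2 and SERPINB7 in these same libraries. Their values against the control are therefore a description, and no support is drawn from a test of them. The guide RNA (gRNA) given to the cells was directed against COLCA2 (labelled COLCA2 knockout, 2 libraries, each with a different guide, called guide 1 and guide 2 here) or POU2F3 (labelled POU2F3 knockout, 1 library) or was non-targeting (labelled WT, 1 library, called the control here). No drug or other agent is given for any group. Whether the edited cells were clones or a pool, and where the guides cut, is not given in the sources used here.

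An inhibitory serpin offers its exposed reactive centre loop as bait to a protease, and cleavage of the loop traps the enzyme in a covalent complex. Clade B serpins in general lack a classical secretion signal and guard cells against serine and cysteine proteases that leak from granules or lysosomes or enter from outside. Several of them, including SERPINB3, SERPINB4, SERPINB5, SERPINB7 and SERPINB13, are known from squamous epithelium and skin. The human genes lie in a cluster at 18q21, which holds SERPINB2, SERPINB3, SERPINB4, SERPINB5, SERPINB7, SERPINB8 and SERPINB13, and in a cluster at 6p25, which holds SERPINB1, SERPINB6 and SERPINB9. POU2F3 is the transcription factor that defines tuft cells, rare chemosensory cells of epithelia, and COLCA2 is known as a coactivator that binds it.

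The 18q21 members are introduced by the sequence just upstream of their start sites, because these members shared 1 order of levels over the libraries. The RefSeq table (GRCh38.p14) matched all 10 members with 15 start sites, and the 250 bases before each start were searched on both strands. The AP-1 motif of FOS and JUN family factors was searched in the loose form TGANTCA, where N is any base. It was found before at least 1 start site of 5 members, SERPINB2, SERPINB5, SERPINB7, SERPINB8 and SERPINB13. Over the 27305 genes in the table the share was 8.06%. All 5 members lie at 18q21. SERPINB12, a clade B gene at 18q21 that is no member and did not share that order, also held an AP-1 match. It began 45 bases before 1 of its start sites. The octamer ATGCAAAT, the motif of POU2 factors, was found before no member start and before 2.03% of genes. The TEAD motif CATTCC was found before SERPINB3 and SERPINB4 and before 14.3% of genes. These matches describe the letters in the windows and are no measurement of binding. SERPINB2 (chr18:63887455-63887704, plus strand), SERPINB7 (chr18:63777531-63777780, plus strand) and SERPINB5 (chr18:63476708-63476957, plus strand) are printed 5′ to 3′ with the AP-1 matches in capitals.
SERPINB2: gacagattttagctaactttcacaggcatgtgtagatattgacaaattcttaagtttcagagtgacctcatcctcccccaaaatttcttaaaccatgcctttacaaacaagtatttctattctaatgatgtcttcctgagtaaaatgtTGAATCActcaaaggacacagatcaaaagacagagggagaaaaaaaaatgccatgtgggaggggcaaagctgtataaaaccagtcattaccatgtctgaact
SERPINB7: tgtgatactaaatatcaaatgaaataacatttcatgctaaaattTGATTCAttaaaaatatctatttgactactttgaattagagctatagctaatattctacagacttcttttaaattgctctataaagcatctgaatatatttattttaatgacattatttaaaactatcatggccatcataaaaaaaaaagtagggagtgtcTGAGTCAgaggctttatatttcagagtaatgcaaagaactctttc
SERPINB5: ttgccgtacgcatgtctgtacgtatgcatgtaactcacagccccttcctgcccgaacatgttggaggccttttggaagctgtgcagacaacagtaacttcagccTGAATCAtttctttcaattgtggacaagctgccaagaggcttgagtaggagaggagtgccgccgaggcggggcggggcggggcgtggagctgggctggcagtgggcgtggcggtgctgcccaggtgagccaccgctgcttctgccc
The match of SERPINB2 began 102 bases before the start, those of SERPINB7 206 and 45 bases before it, and that of SERPINB5 146 bases before it. Of the SERPINB7 windows not printed, chr18:63775168-63775417 also held AP-1 matches, and chr18:63752807-63753056 held none. SERPINB3 (chr18:63661894-63662143, minus strand) and SERPINB4 (chr18:63644257-63644506, minus strand) are printed because these upstream windows are near copies. Capitals mark the 3 of 250 bases at which the windows differ. The windows lie before the start sites, and how far the transcripts of these genes share sequence is given further below.
SERPINB3: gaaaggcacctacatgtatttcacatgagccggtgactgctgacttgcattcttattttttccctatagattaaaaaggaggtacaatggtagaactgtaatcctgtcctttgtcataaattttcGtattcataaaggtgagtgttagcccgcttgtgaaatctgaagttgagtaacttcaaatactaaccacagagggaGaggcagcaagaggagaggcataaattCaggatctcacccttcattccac
SERPINB4: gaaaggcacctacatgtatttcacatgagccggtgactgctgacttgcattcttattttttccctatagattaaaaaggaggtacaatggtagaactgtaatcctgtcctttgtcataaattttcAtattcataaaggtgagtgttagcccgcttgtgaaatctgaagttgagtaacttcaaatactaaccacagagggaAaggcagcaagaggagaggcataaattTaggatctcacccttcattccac

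The 4 libraries held between 21587741 and 29632382 reads assigned to genes. The deposited values are normalized counts, that is, reads divided by 1 scaling factor per library, and the reads were recovered from their steps. POU2F3 had normalized counts of 14602 in the control, 3677 and 2351 with the COLCA2 guides and 1449 with its own gRNA. COLCA2 stood at 5585, 3119, 3541 and 1393 in the same order. The tuft character of the line was checked on 10 markers, POU2F3 among them, of which 9 averaged a normalized count of 20 or more. The 10 summed to 47919 in the control, with TRPM5 at no more than 2 reads in any library. Of those 9, the number at least 2-fold lower was 7 with both COLCA2 guides and 8 with POU2F3 gRNA. Over all genes past that minimum the shares were 2.02% and 3.05%. Of the blood cell markers, CD3E was at 0 in all 4 libraries and PTPRC lay between 8.29 and 16.2, while LYZ and CD68 passed the minimum.

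Ratios are given as log2((normalized count + 1) / (control normalized count + 1)), a scale that understates the change of low genes, or as plain ratios of normalized counts with a 95% exact binomial interval on the reads. These intervals cover counting error only, since reads are not independent molecules. All 3 ratios use the same non-targeting library, so they are not independent of each other. The spread of the COLCA2 guides is that of 2 libraries, and nothing says that these came from separate cultures. In bulk RNA, more cells that express a gene and more RNA per cell cannot be told apart.

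In the libraries with COLCA2 gRNA, the 18q21 members were present at higher levels than in the control, and the 6p25 members were close to it. Among the 9 members that reached this minimum mean of 20, the count at least 2-fold higher with both COLCA2 guides was 6, namely SERPINB2, SERPINB3, SERPINB4, SERPINB5, SERPINB7 and SERPINB8, where 5.79% of 14940 genes were. With POU2F3 gRNA the count was 4, SERPINB2, SERPINB3, SERPINB7 and SERPINB8, where 6.73% of genes were. The rule that chose the family used these contrasts, and SERPINB2, SERPINB3, SERPINB4 and SERPINB7, under 20 in the control, passed the minimum only through edited libraries, so nothing is read from these counts. The count at least 2-fold lower was 0 both with COLCA2 gRNA, where 2.02% of genes were, and with POU2F3 gRNA, where 3.05% were. SERPINB13, with a mean of 18.5, was the member under the minimum. Over all 10 members the median log2 ratio was 2.05 and 2.46 with the COLCA2 guides and 0.88 with POU2F3 gRNA, and the same with the members listed at 0 set at their bound, where the medians of all genes were between -0.01 and 0.00. The members nearest the 2-fold line from outside were SERPINB1 for COLCA2 gRNA (0.54 and 0.41) and SERPINB5 for POU2F3 gRNA (0.59), and the nearest inside for POU2F3 gRNA was SERPINB8 (1.18).

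**Figure D1:**
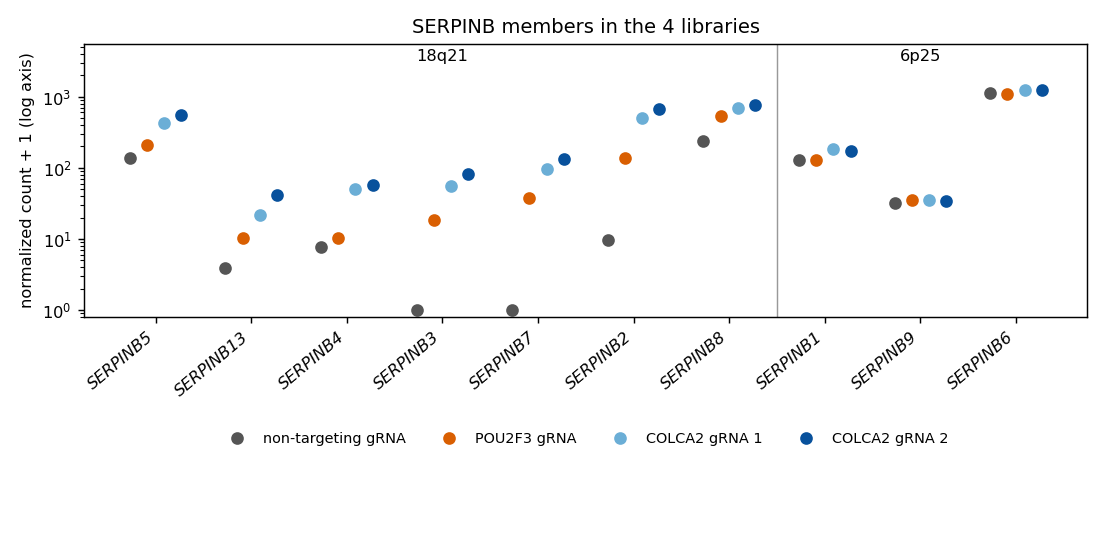
Normalized count plus 1 of each of the 10 members in the 4 libraries, on a logarithmic axis, 1 point per library, with the 18q21 members on the left and the 6p25 members on the right; a member listed at 0 is drawn at 1. At 18q21 the points climb from the control over POU2F3 gRNA to the COLCA2 guides, for SERPINB2 from 8.59 to 662.1, and SERPINB6 and SERPINB9 are nearly level.

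SERPINB2, also called plasminogen activator inhibitor 2, inhibits the urokinase-type plasminogen activator. Its normalized count was 8.59 in the control (9 reads), 135.1 with POU2F3 gRNA, 500.8 with COLCA2 guide 1 and 662.1 with COLCA2 guide 2. The control was the lowest and both COLCA2 libraries were above the POU2F3 library. The ratio to the control was 58.3 (interval 30.4 to 128) and 77.0 (40.3 to 169) with the COLCA2 guides, and 15.7 (8.08 to 35.0) with POU2F3 gRNA. On the log2 scale the COLCA2 mean was 5.91 ± 0.28 (SD, n = 2 guides). SERPINB2 shares 18.9% of its 31-base words with SERPINB10, whose annotated span overlaps it by 6717 bases on the same strand. SERPINB10 held at most 13 reads in any library, and with both genes summed the ratios were 44.4, 59.1 and 12.6.

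SERPINB7, or megsin, is a serpin of the upper epidermis whose loss causes a palmoplantar keratosis. It was listed at 0 in the control and had a normalized count of 36.9 with POU2F3 gRNA (44 reads), 96.4 with COLCA2 guide 1 (93 reads) and 131.7 with COLCA2 guide 2 (112 reads). Every edited library was above the control. Against a floor of 3 reads in that library, SERPINB7 was at least 33.7-fold and 46.0-fold higher with the COLCA2 guides and at least 12.9-fold higher with POU2F3 gRNA. The counting intervals, taken from 0 reads, begin at 26.8, 36.8 and 10.1. It had 1 row in the table and shared no 31-base word with another annotated gene.

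SERPINB3 and SERPINB4, the squamous cell carcinoma antigens, are neighbouring copies with different targets: SERPINB3 inhibits the lysosomal cysteine proteases cathepsin L, K and S, and SERPINB4 inhibits cathepsin G and mast cell chymase. SERPINB3 was listed at 0 in the control and stood at 17.6 with POU2F3 gRNA, 53.9 with COLCA2 guide 1 and 81.1 with COLCA2 guide 2. Against the floor of 3 reads this was at least 6.15-fold, 18.8-fold and 28.3-fold higher, and the counting intervals begin at 4.58, 14.8 and 22.4. SERPINB4 had 6.68 in the control (7 reads), 9.23 with POU2F3 gRNA (11 reads), 49.8 with COLCA2 guide 1 and 56.5 with COLCA2 guide 2. Its COLCA2 ratios were 7.44 (3.35 to 19.5) and 8.44 (3.80 to 22.1). With POU2F3 gRNA the SERPINB4 ratio was 1.38, and its interval of 0.489 to 4.2 holds both no difference and a 4-fold difference.

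How reads were divided between SERPINB3 and SERPINB4 is uncertain, since 39.0% of the 31-base words of SERPINB3 also occur in SERPINB4. SERPINB11, with 33.3% of them, partly the same words, overlaps SERPINB3 by 6767 bases on the opposite strand and held at most 3 reads. The sum of SERPINB3 and SERPINB4 does not depend on that division. It was 6.68 in the control, 26.9 with POU2F3 gRNA, 103.7 with COLCA2 guide 1 and 137.6 with COLCA2 guide 2, ratios of 4.02, 15.5 and 20.6. The pair was thus higher in every edited library and highest with the COLCA2 guides.

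SERPINB5, or maspin, is a non-inhibitory member known from mammary and other epithelial cells as a tumour suppressor. It stood at 137.5 in the control, 207.3 with POU2F3 gRNA, 419.9 with COLCA2 guide 1 and 557.4 with COLCA2 guide 2. The ratio was 3.05 (2.52 to 3.72) and 4.05 (3.36 to 4.92) with the COLCA2 guides, and 1.51 (1.22 to 1.86) with POU2F3 gRNA. SERPINB13, or headpin, an inhibitor of cathepsins K and L in keratinocytes, had 3 reads in the control (2.86), 11 with POU2F3 gRNA (9.23), 20 with COLCA2 guide 1 (20.7) and 35 with COLCA2 guide 2 (41.2). Its ratios were 7.24 (2.15 to 38.0) and 14.4 (4.53 to 73.0) with the COLCA2 guides and 3.22 (0.851 to 18) with POU2F3 gRNA, so at this depth a difference with POU2F3 gRNA was not detectable.

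SERPINB8, an inhibitor of the proprotein convertase furin, had 234.0 in the control, 530.5 with POU2F3 gRNA, 683.2 with COLCA2 guide 1 and 759.7 with COLCA2 guide 2. Taken alone its ratio was 2.27 (1.95 to 2.64) with POU2F3 gRNA and 2.92 (2.52 to 3.40) and 3.25 (2.80 to 3.78) with the COLCA2 guides. HMSD, a small gene that overlaps SERPINB8 by 11850 bases on the same strand, moved the other way. HMSD stood at 392.5 in the control, 104.9 with POU2F3 gRNA, 110.9 with COLCA2 guide 1 and 197.6 with COLCA2 guide 2. SERPINB8 shares 5.78% of its 31-base words with HMSD, which is 11.7% of those of HMSD. Summed, SERPINB8 and HMSD gave 626.4, 635.4, 794.2 and 957.3 in the same order, ratios of 1.01 with POU2F3 gRNA and of 1.27 and 1.53 with the COLCA2 guides. The 2-fold difference of SERPINB8 is therefore not seen in the sum with HMSD, and whether it lies in the division of reads between them was not tested.

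**Figure D2:**
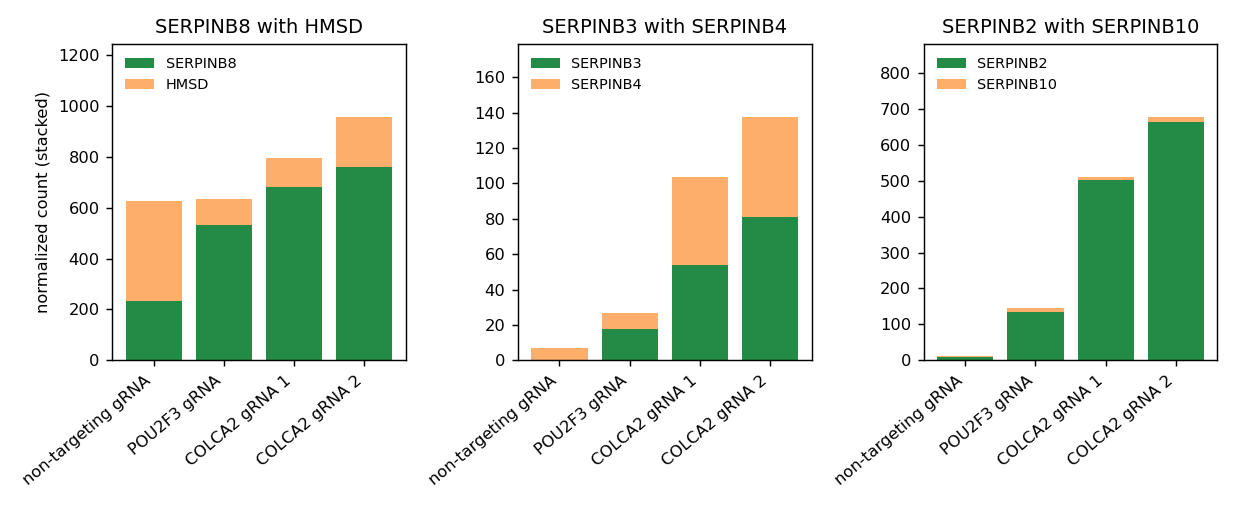
Stacked bars, from 0, of the normalized counts of SERPINB8 with HMSD, SERPINB3 with SERPINB4 and SERPINB2 with SERPINB10 in each of the 4 libraries. The stacks with SERPINB10 and SERPINB4 keep the increase, while the stack of SERPINB8 with HMSD reaches 626.4 in the control and 635.4 with POU2F3 gRNA.

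The 6p25 members guard against proteases of neutrophils and cytotoxic lymphocytes. SERPINB6, which inhibits cathepsin G and thrombin, had 1111 in the control, 1095 with POU2F3 gRNA, 1222 with COLCA2 guide 1 and 1245 with COLCA2 guide 2. Its ratios were 1.10 (1.01 to 1.19) and 1.12 (1.03 to 1.22) with the COLCA2 guides and 0.986 (0.911 to 1.07) with POU2F3 gRNA. SERPINB1, the leukocyte elastase inhibitor, stood at 127.0 in the control, 127.6 with POU2F3 gRNA, 184.5 with COLCA2 guide 1 and 169.4 with COLCA2 guide 2. The POU2F3 and control values of SERPINB1 were nearly the same, and the ratios with the COLCA2 guides were 1.45 (1.15 to 1.83) and 1.33 (1.05 to 1.70). SERPINB9, the inhibitor of granzyme B, lay between 31.5 and 34.4 in all 4 libraries. The SERPINB9 ratios were 1.09 (0.649 to 1.82), 1.04 (0.608 to 1.78) and 1.09 (0.674 to 1.78) for the COLCA2 guides and POU2F3 gRNA, intervals that leave room for a change of up to 1.8-fold.

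**Figure D3:**
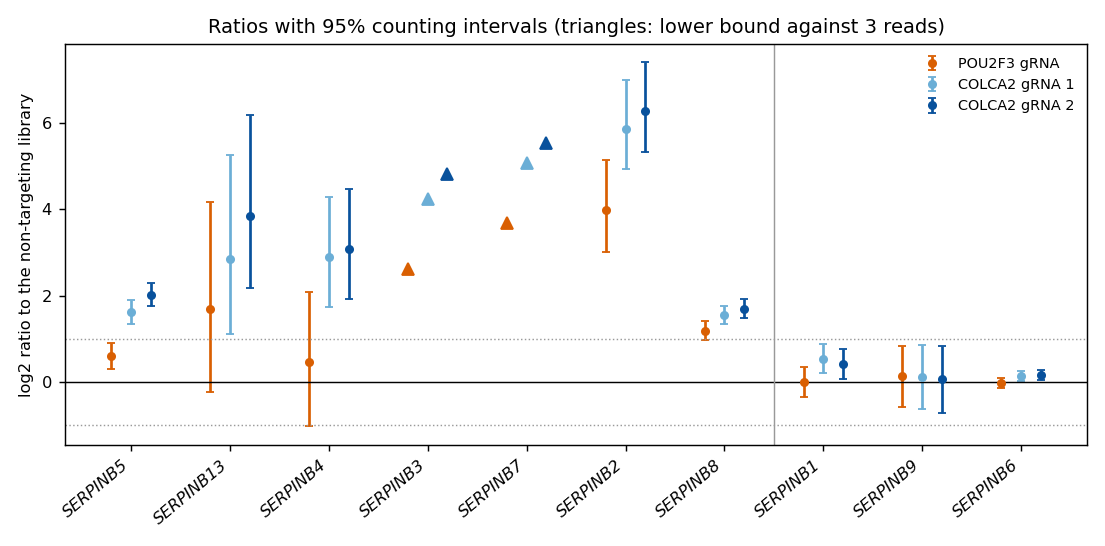
Log2 of the plain ratio of normalized counts to the control for each member, 1 point per edited library, with bars for the 95% counting interval, dotted lines at a 2-fold difference and triangles for lower bounds against 3 reads (SERPINB3 and SERPINB7). The bars of SERPINB2 lie far above the dotted line in all 3 libraries (ratios of 15.7 to 77.0), and those of SERPINB9 cross 0.

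The COLCA2 and POU2F3 libraries can be compared with each other without the control. Members at least 2-fold lower with POU2F3 gRNA than with both COLCA2 guides numbered 5, SERPINB2, SERPINB3, SERPINB4, SERPINB5 and SERPINB7, where 0.924% of all genes were. SERPINB3 and SERPINB4 reached the minimum mean only through the COLCA2 libraries, where they are high, and SERPINB2 and SERPINB7 are the genes that chose the family, so this count too is a description. Members at least 2-fold higher numbered 0, where 0.442% of genes were. The COLCA2 guides gave 3.71 (3.09 to 4.46) and 4.90 (4.11 to 5.87) times the POU2F3 level of SERPINB2, and 2.61 (1.81 to 3.83) and 3.57 (2.50 to 5.18) times that of SERPINB7. For SERPINB4 they gave 5.39 (2.76 to 11.5) and 6.11 (3.13 to 13.1) times, the largest of these ratios among the members. SERPINB5 lay just inside the threshold, with log2 values of -1.01 and -1.42 for POU2F3 gRNA over the guides, and the nearest members outside it were SERPINB1, with -0.53 and -0.41, and SERPINB8, with -0.36 and -0.52. SERPINB9 was the member with the same level in both, with a log2 difference of 0.03 between POU2F3 gRNA and the COLCA2 mean.

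All 7 members at 18q21 had the same order of levels, lowest in the control, then POU2F3 gRNA, COLCA2 guide 1 and COLCA2 guide 2. No member at 6p25 did, and neither did SERPINB10, SERPINB11 and SERPINB12, the clade B genes at 18q21 that are no members. SERPINB13 is among these 7 though under the minimum mean, and SERPINB2 and SERPINB7 chose the family, so the order is a description. It was found in 8.55% of the 14940 genes and in 44.2% of the 865 genes that were at least 2-fold higher with both COLCA2 guides. Neighbours in it did not always differ beyond counting error. COLCA2 guide 2 gave 1.32 (1.17 to 1.5) times the level of COLCA2 guide 1 for SERPINB2, but 1.13 (0.744 to 1.73) for SERPINB4 and 1.11 (0.996 to 1.24) for SERPINB8. The number of members at least 2-fold apart between the guides was 0, where 2.22% of genes were.

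A count test was run on the recovered reads as an alternative. In it edgeR's quasi-likelihood test, with Benjamini-Hochberg adjustment at 0.05, took its only residual degree of freedom from the COLCA2 guides, so it compares these libraries and not the conditions. Over 14940 genes it called 1709 higher and 1122 lower with COLCA2 gRNA and 1263 higher and 595 lower with POU2F3 gRNA. Higher calls made up 11.4% and 8.45% of genes and took in the 6 and 4 members listed above, which restates how the family was chosen and adds no support. Between POU2F3 and COLCA2 gRNA it called 35 genes lower, or 0.234%, and 16 higher, and SERPINB2 was the only member among them.

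Levels of different genes are compared per kilobase of the longest annotated transcript. In the control SERPINB6 led with a normalized count of 197.6 per kilobase, followed by SERPINB8 with 67.3, SERPINB5 with 49.4 and SERPINB1 with 48.5, and SERPINB2 stood at 3.99. With COLCA2 guide 2 the order was SERPINB2 with 307.2, SERPINB6 with 221.6, SERPINB8 with 218.5 and SERPINB5 with 200.3 per kilobase. With COLCA2 guide 1 SERPINB2 led as well, with 232.4, and with POU2F3 gRNA SERPINB6 led with 194.9. These ranks rest on the transcript length used, 5620 bases for SERPINB6 and 2155 for SERPINB2. Undivided, the normalized count of SERPINB6 was above that of SERPINB2 in every library. It was 1222 against 500.8 with COLCA2 guide 1 and 1245 against 662.1 with COLCA2 guide 2. SERPINB9 and SERPINB13 stayed below 13 per kilobase in every library. The 10 normalized counts summed to 1659 in the control, 2203 with POU2F3 gRNA, 3266 with COLCA2 guide 1 and 3738 with COLCA2 guide 2. The 18q21 members made up 23.5%, 42.9%, 55.9% and 61.3% of that sum, and the 6p25 sum stayed between 1257 and 1448.

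The clusters were set against their neighbours, using gene positions of GENCODE release 29 (GRCh38). The 18q21 cluster spans chr18:63476761-64019779 and holds the 7 members and SERPINB10, SERPINB11 and SERPINB12. SERPINB12, between SERPINB5 and SERPINB13, stood at 13.4 in the control, 12.6 with POU2F3 gRNA, 29.03 with COLCA2 guide 1 and 27.05 with COLCA2 guide 2. Its ratios of 2.17 (1.11 to 4.46) and 2.02 (0.998 to 4.25) with the COLCA2 guides had log2 values of 1.06 and 0.96, so it did not pass with both. SERPINB10 and SERPINB11 were under the minimum. SERPINB10 had 2.86 in the control, 9.23 with POU2F3 gRNA, 8.29 with COLCA2 guide 1 and 15.3 with COLCA2 guide 2, and SERPINB11 had at most 3 reads. Of 10 genes listed as neighbours of the cluster, 0 were at least 2-fold higher in either comparison. HMSD, which lies inside the cluster and overlaps SERPINB8, was at least 2-fold lower with POU2F3 gRNA. CDH7 was the only listed gene on the telomere side, 2344 kb from the start of the cluster, so that side was hardly examined. The nearest genes on the centromere side, VPS4B and KDSR, had log2 ratios between 0.02 and 0.28. BCL2, beyond them, was at 1971 in the control and at 988.0, 983.2 and 1128 with the COLCA2 guides and POU2F3 gRNA.

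The 6p25 cluster spans chr6:2832332-2972165. Of 10 genes around it, FOXC1 was at least 2-fold higher with both targets, with 829.8 in the control and 2329, 2465 and 3117 with the COLCA2 guides and POU2F3 gRNA. TUBB2B was at least 2-fold lower with POU2F3 gRNA. NQO2, the nearest gene beyond SERPINB6, had a mean log2 ratio of 0.50 with COLCA2 gRNA and of 0.49 with POU2F3 gRNA. The median of these 10 genes was -0.04 and -0.09, and that of the 10 genes listed for the 18q21 cluster, HMSD among them, was -0.35 and -0.17.

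**Figure D4:**
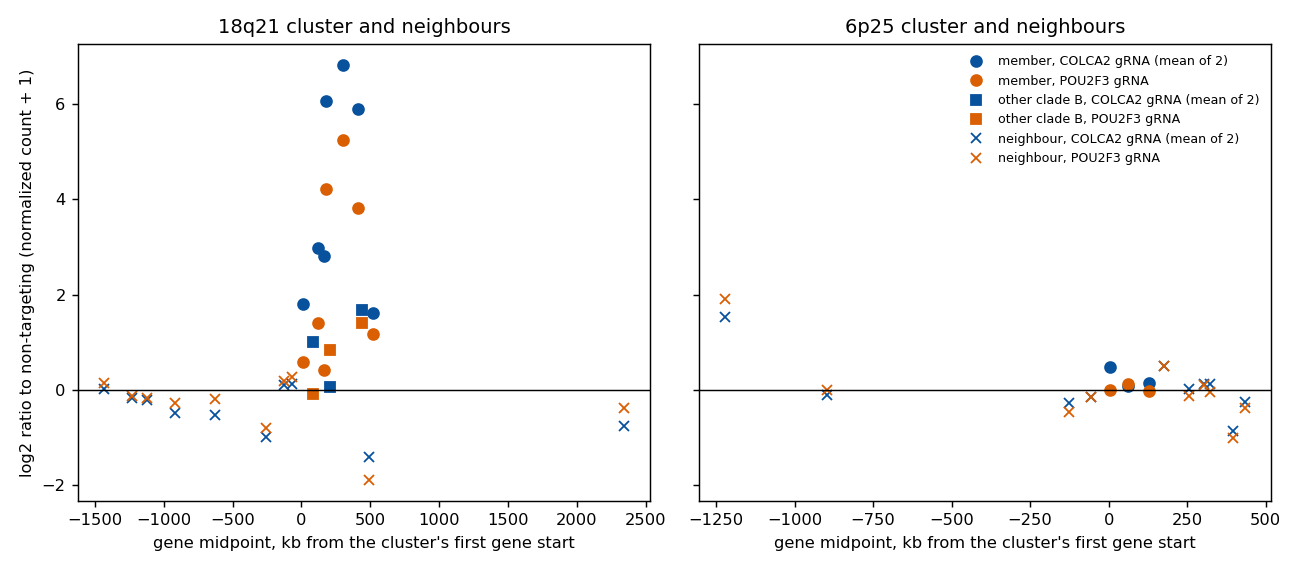
Log2 ratio to the control of the clade B genes (filled circles for members, squares for the others) and their neighbours (crosses), by gene midpoint, against distance from the start of the 18q21 cluster and of the 6p25 cluster in kilobases, for COLCA2 gRNA (mean of the guides) and POU2F3 gRNA. At 18q21 the members reach 6.83 (SERPINB7, COLCA2 gRNA) while VPS4B and KDSR on their flank lie between 0.11 and 0.28.

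Of 15 proteases that members are known to bind, 7 passed the minimum. At least 2-fold higher were 3 with both COLCA2 guides, where 5.79% of all genes were, and 5 with POU2F3 gRNA, where 6.73% were. Of the 7, 0 were at least 2-fold lower. PLG, or plasminogen, was under the minimum, with 31 reads in the control, 45 with POU2F3 gRNA and 1 and 2 with the COLCA2 guides. CTSS, or cathepsin S, also under it, had 0 reads in the control, 12 with POU2F3 gRNA and 25 and 18 with the COLCA2 guides. PLAU, the urokinase that SERPINB2 inhibits, stood at 341.9 in the control, 3829 with POU2F3 gRNA, 5055 with COLCA2 guide 1 and 5901 with COLCA2 guide 2. Inhibitor and protease were thus both lowest in the control and both highest with COLCA2 guide 2. CTSL, or cathepsin L, a target of SERPINB3 and SERPINB13, was at 153.7 in the control and at 524.6, 573.3 and 597.4 with POU2F3 gRNA and the COLCA2 guides. CASP1, which cleaves interleukin precursors, had 4.77 in the control, 57.1 with POU2F3 gRNA, 174.2 with COLCA2 guide 1 and 148.2 with COLCA2 guide 2. CTSK, or cathepsin K, differed between the guides, at 7.26 and 110.6, and stood at 59.6 with POU2F3 gRNA and 4.77 in the control. FURIN, the target of SERPINB8, was at 2019 in the control and between 1749 and 1972 in the others. The granule proteases that SERPINB1, SERPINB4, SERPINB6 and SERPINB9 inhibit were scarce: CTSG was listed at 0 in all 4 libraries, and ELANE, CMA1 and GZMB had at most 2 reads in any.

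Serpins of other clades are given by 2 examples. SERPINA3, or alpha-1-antichymotrypsin, was at 7.64 in the control, 55.4 with POU2F3 gRNA, 89.2 with COLCA2 guide 1 and 56.5 with guide 2. SERPINE2, or protease nexin 1, lay between 501.9 and 590.9 in all 4 libraries.

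Of 15 transcription factors with known links to clade B serpin genes, all passed the minimum. At least 2-fold higher were 5 with both COLCA2 guides, where 5.79% of all genes were, and 6 with POU2F3 gRNA, where 6.73% were. The list was chosen with earlier results of these data known, so nothing is read from these counts. The AP-1 subunit FOSL1 stood at 29.6 in the control, 219.9 with POU2F3 gRNA, 424.0 with COLCA2 guide 1 and 430.4 with COLCA2 guide 2. FOSL2, a related subunit, was at 779.2 there and between 5814 and 6447 in the edited libraries. The other AP-1 subunits on the list differed from this. JUN had 3241 in the control and 2373 to 2905 in the others. FOS had 2791 in the control, 4875 with POU2F3 gRNA and 2125 and 2367 with the COLCA2 guides. JUND stood at 4584 in the control and between 5558 and 5822.5 in the others. JUNB, at 1006.5 in the control, was highest with POU2F3 gRNA (2033), with 1675 and 1793.5 for the COLCA2 guides. ELF3, an epithelial ETS factor, was at 424.0 in the control, 1907 with POU2F3 gRNA, 2702 with COLCA2 guide 1 and 2978 with COLCA2 guide 2. TP63, the master factor of squamous epithelium, was at 38.2, 159.5, 187.7 and 264.6 in that order.

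Squamous markers were higher in the edited libraries too, though not all in the order of the 18q21 members. Of 10 squamous markers, TP63 among them, 6 passed the minimum, and all 6 were at least 2-fold higher with both COLCA2 guides and 5 with POU2F3 gRNA. Over all genes the shares were 5.79% and 6.73%. The 10 summed to 252 in the control, 2984 with POU2F3 gRNA, 5249 with COLCA2 guide 1 and 6110 with COLCA2 guide 2, and PKP1 was the one marker listed at 0 in the control. KRT5, a basal keratin, was at 95.5 there and at 1024, 3558 and 4079. KRT13 and KRT14 were highest with POU2F3 gRNA instead, KRT13 with 1475 there against 719.5 and 815.0 with the COLCA2 guides and 23.9 in the control, and KRT14 with 99.0 against 52.9, 85.9 and 4.77. SPRR1B, under the minimum, had 6 reads in the control, 2 with POU2F3 gRNA and 16 and 18 with the COLCA2 guides. Of 6 fibroblast markers, 5 passed the minimum and 3 were at least 2-fold higher in each comparison, with sums of 1267 in the control, 1585 with POU2F3 gRNA, 2076 with COLCA2 guide 1 and 1772 with COLCA2 guide 2. Blood cell markers went in both directions. CD68, a lysosomal protein of macrophages, was at 72.6 in the control, 139.3 with POU2F3 gRNA, 209.4 with COLCA2 guide 1 and 199.9 with guide 2, and ITGAM went from 0 reads to 16, 32 and 12. LYZ was at 72.6 in the control and between 45.6 and 61.3 in the others, and PTPRC was also highest in the control. The part of these markers in the SERPINB values was not tested.

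Genes with the pattern closest to SERPINB2 and SERPINB7 were found by the Euclidean distance of centred log2(normalized count + 1) values over the 4 libraries. For SERPINB2 the closest was SERPINB3, at a distance of 0.31, then KRT5 (0.52), HSPB3 (0.52), AC135977.1 (0.59) and PI3 (0.59). PI3, or elafin, is a small elastase inhibitor of skin outside the serpin fold, and stood at 4.77 in the control, 97.4 with POU2F3 gRNA, 223.9 with COLCA2 guide 1 and 294.0 with COLCA2 guide 2. For SERPINB7 the closest were CXorf49B (0.55), UGT1A6 (0.73), SERPINB3 (0.77), GTF2H2B (0.86) and AOX1 (0.92), of which AOX1 had 1 read in the control and the others were listed at 0 there. SERPINB2 and SERPINB7 lay 1.03 apart. For genes listed at 0 in the control these distances rest on the pseudocount of 1: the COLCA2 log2 ratios of SERPINB2 and SERPINB3 were 5.91 and 6.07 with it, 6.05 and 9.37 with 0.1, and 4.98 and 2.93 with 10.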

How the data were processed

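The deposited files hold normalized counts per gene, a linear signal per the file headers, and the submitters' processing notes name Salmon, DESeq2 and hg38 without roles or versions. The strand setting and the annotation are not given in the sources used here. In each of the 4 libraries 100% of the deposited signal values were whole reads within 0.001 once divided by 1 step, and these reads (21587741 to 29632382 per library) gave the counting intervals at 95%. Whole values can also come from estimated counts that were rounded.

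Rows of the same symbol were summed, and each member had 1 row. A pseudocount of 1, a minimum mean of 20 (14940 genes) and a 2-fold threshold were used, with both COLCA2 guides required. With 1 library in the POU2F3 and non-targeting groups no test was made on the main values. edgeR 4.0.16 (R 4.3.3; TMM scaling, quasi-likelihood test, Benjamini-Hochberg adjustment at 0.05) was run on the reads as an alternative and tested on simulated data. Other steps used Python 3.11.15, pandas 2.3.3, numpy 2.4.6, scipy 1.17.1 and matplotlib 3.10.9. The members and lists were chosen with earlier results of these data known.

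Named genes were all members, the targeted genes, the other clade B genes, from each list up to 4 genes with the largest consistent change and any that a member inhibits or neighbours, and the 5 genes closest to SERPINB2 and to SERPINB7. SERPINE2, FOS, JUN, JUNB, JUND, PLG, TRPM5, PTPRC, CD3E, ITGAM, SPRR1B and PKP1 were named beyond that rule, after their values were seen. Alternatives were other pseudocounts, minimums, thresholds and scalings, unsummed rows, each guide left out and the mean of the guides. Sums of genes that share reads were added after the data were seen, from shared 31-base words of GENCODE release 29 transcripts. Promoter sequence is from RefSeq (GRCh38.p14). The counts over serpins of other clades and the sum of the blood cell markers are not reported here.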

Additional observations from a re-analysis of the deposited data

Results flagged for a closer look

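For SERPINB6 the log2 ratio to the control was 0.14 and 0.17 with the COLCA2 guides but -0.02 with POU2F3 gRNA, so the signs were opposite. The difference was not tested, since the POU2F3 group held 1 library. The interval of the POU2F3 ratio, 0.911 to 1.07, holds no difference.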

How the results depend on the processing

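With 1 control library for every ratio and no replicate with POU2F3 gRNA, guide, culture and library cannot be told apart, and members with under 15 reads in the control carry wide intervals. No member past 2-fold changed sign under any alternative run, while SERPINB1 with POU2F3 gRNA, at 0.01, went to -0.03 with equal library totals. At a minimum mean of 100 the members at least 2-fold higher numbered 3 with COLCA2 gRNA and 2 with POU2F3 gRNA, and those apart between the targets numbered 2, because fewer members are tested. The count apart was 1 at a 4-fold threshold and 1 by edgeR. Leaving out either guide gave 6 higher, 0 lower and 5 apart both times. Without a minimum SERPINB13 joined, giving 7, 5 and 6. SERPINB5 left the count apart (4) with equal library totals and with a pseudocount of 10. Summing genes that share reads gave 4, 3 and 4. There SERPINB4 was counted within SERPINB3 and not on its own, and only SERPINB8 fell under the 2-fold line. The log2 ratios of SERPINB3 and SERPINB7, listed at 0 in the control, follow the pseudocount: 9.37 and 10.1 with COLCA2 gRNA at 0.1, and 2.93 and 3.62 at 10. Over all genes, the 865 and 1005 higher became 1857 and 2551 without a minimum, 1451 and 1822 at 1.5-fold, 346 and 365 at 4-fold, and 1709 and 1263 by edgeR. The 204 apart became 1603 without a minimum, 73 at a mean of 100, 660 at 1.5-fold, 39 at 4-fold and 51 by edgeR. Scaling to equal totals moved the median of all genes to -0.08 at most. No paired analysis was possible because POU2F3 and control held 1 library each.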
